A study of Mus musculus with 16 samples.

Results

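Lumbar spinal cord of 80 days old SOD1G93A mice was compared with that of wild-type mice of the same age, called NonTg in the labels and WT here. These are the 8 samples labelled 80 days of the 16 in the series, 4 of each genotype. SOD1G93A mice carry a human SOD1 transgene with the mutation that names the line, beside their own mouse Sod1, and WT mice lack it. Both groups were male, shared a mixed B6SJL background and received no treatment, and the labels call the 4 arrays of a group biological replicates. Each array of the Agilent whole mouse genome design held Cy3-labeled cRNA of 1 lumbar cord and the same Cy5-labeled reference on every array, made of neonatal heart, kidney and liver RNA from pooled NonTg and SOD1G93A mice. The dyes were not exchanged on any array. Values are log2 ratios of Cy3 to Cy5 after normalization within and between arrays. A value of 0 is therefore the usual ratio of probes of like brightness, and not an equal level in cord and reference. A change is the SOD1G93A mean minus the WT mean of these ratios.

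Mutations of SOD1, the cytosolic enzyme that removes superoxide, cause a familial form of amyotrophic lateral sclerosis, in which motor neurons of the cord and cortex degenerate. The mutant protein misfolds and aggregates, and mice that express it lose motor neurons, with activation of astrocytes and microglia, mitochondrial damage and a strained protein quality control described along the course of the disease. At the age studied here the mice are described as pre-symptomatic. The sample is the whole lumbar cord, in which motor neurons are a small share of the cells, and in such bulk tissue fewer cells of a type and less RNA per cell cannot be told apart.

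Markers of the main cell types of the cord were present on all arrays. The 20 microglia genes, 16 astrocyte genes and 14 general neuron genes measured were well above background on all 8 arrays, as were 18 of 19 oligodendrocyte genes and 9 of 11 motor neuron genes. Chat, which makes acetylcholine in motor neurons, and Lhx3 were above background on none, so that Chat, the defining marker of motor neurons, gave no value. The share of probes with Cy3 above background was 49.0% to 55.3% per array, no spot was saturated, and correlations between arrays over all probes were 0.976 to 0.992. With 4 arrays a group, the precision of all values is limited by that number.

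A few arrays stood apart from their group by markers of particular cells. For each array a list was scored by how far its genes lay, in the median and on the log2 scale, from their own means over the 8 arrays. The 20 microglia genes scored 0.43 on WT replicate 3 and 0.67 on SOD1G93A replicate 4, and -0.30 to -0.036 on the other arrays. The 11 skeletal muscle genes scored 0.76 on WT replicate 1, 1.22 on SOD1G93A replicate 2 and 0.92 on SOD1G93A replicate 4, and -0.67 to -0.44 on the others. The 7 Schwann cell genes, markers of peripheral nerve roots, were high on WT replicate 1 (0.58) and SOD1G93A replicate 1 (0.82), and the 11 meningeal fibroblast genes on WT replicate 1 (0.80). Each of these features occurred in both genotypes or in WT alone, and SOD1G93A replicate 4 combined the highest microglia score with a high muscle score and 63 spots whose Cy3 background lay over 20 units above their signal.

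**Figure D1:**
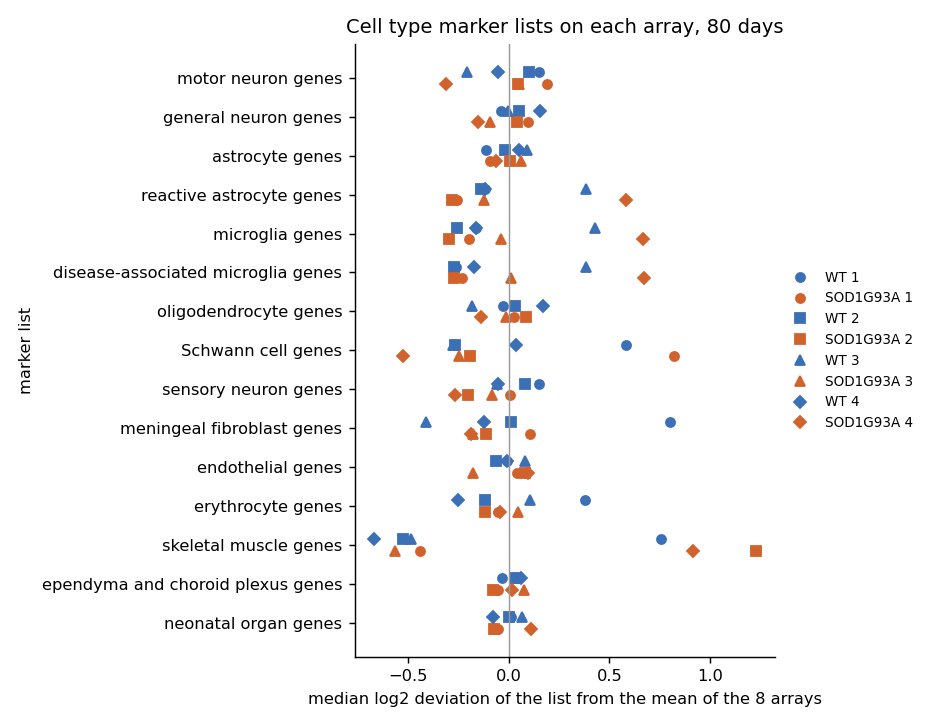
Score of each cell type marker list (rows) on each of the 8 arrays, the median over its genes of the log2 difference from each gene's own average (horizontal axis). Blue marks are WT and orange marks SOD1G93A, with the shape giving the replicate number. Microglia and reactive astrocyte genes are high on WT replicate 3 and SOD1G93A replicate 4, and skeletal muscle genes on WT replicate 1 and SOD1G93A replicates 2 and 4, while the motor neuron, neuron, astrocyte and oligodendrocyte lists stay between -0.31 and 0.19 on every array.

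Changes at this age were small, and more genes were lower than higher in SOD1G93A mice. A probe is called here when limma's moderated test gave an unadjusted two-sided p under 0.05, the threshold that the study used. Of 21603 probes tested, 1219 (5.64%) were called, 508 higher and 711 lower, and 240 had a p under 0.01. A threshold of 0.05 calls on average a share of 0.05 of probes when none differs, so the share called was close to that. With Benjamini-Hochberg adjustment limma called 0 probes, and the smallest adjusted p was 0.265, so that no single change below passes correction for the number of probes. Taking the brightest probe of each gene, 722 of 13425 genes (5.38%) were called, 275 higher (2.05%) and 447 lower (3.33%), and the median change over all 13425 was -0.0059. The median size of a called change was 0.22 on the log2 scale. The 4 arrays of a genotype did not overlap with the other 4 for 354 called genes, 119 higher and 235 lower. Over all 21603 probes tested, called or not, the groups did not overlap for 789 (3.65%). The share of the 70 splits of 8 arrays that separate 4 from 4 this fully is 0.0286.

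The balance of directions depended on the processing and on brightness. Higher probes were 41.7% of the calls, against 56.2% without background subtraction, 53.7% with the bright local backgrounds of single spots set to the array median, 80.4% when arrays were centred on the median without loess, 59.9% in the deposited normalized values of the Cy3 channel and 57.4% without SOD1G93A replicate 4. Centring without loess also moved the median over genes to 0.056. Among probes with a mean log2 intensity under 8 the share called was 3.98%, and it was 13.7% among the 365 probes between 13 and 14, with 9.04% lower and 4.66% higher, and 11% among the 172 probes of 14 and above, with 9.30% lower and 1.74% higher.

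Only 20 called genes changed by over 0.5 on the log2 scale, 7 higher and 13 lower, and the groups did not overlap for 5 of them. Of the 7 higher genes 5 were MHC class I genes of chromosome 17, and of the 13 lower genes 3 (Ocel1, Fam32a and Fcho1) lay close together on chromosome 8. Both clusters are described below by position.

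Some of the 20 are noncoding RNAs or little known genes. Rmrp, the RNA of a ribonuclease that processes ribosomal RNA, was at -0.61, -0.12, -0.75 and 0.16 on the WT arrays and -0.55, -0.76, -1.20 and -0.97 on the SOD1G93A arrays, a change of -0.54 (SE 0.20, p = 0.0244 from limma, exact p = 0.114). Mir124-2hg, the host transcript of a neuronal microRNA, was at 3.68, 2.71, 2.50 and 3.14 and at 2.93, 2.45, 2.16 and 1.88, a change of -0.65 (SE 0.27, p = 0.0362 from limma, exact p = 0.114). Zfp605, a zinc finger protein, was at 1.66, -0.063, 0.74 and 1.75 and at 0.057, 0.68, -0.082 and -0.049, a difference of -0.87 (SE 0.36). It was above background on 3 WT and 2 SOD1G93A arrays, so that it passed the filter through WT alone, and it is given without a test. The groups overlapped in each of these genes. The RIKEN transcript B930095G15Rik changed by 0.53. These genes were chosen after their values were seen, for the size of their change.

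Among genes whose groups did not overlap, the largest increase was that of Eef2 (probe A_52_P81562, chromosome 10, 80973051 to 80973110 of the NCBI35 or mm7 mouse build), the elongation factor that moves the ribosome along the message. Its log2 ratio was 0.071, -0.46, 0.013 and -0.28 on WT replicates 1 to 4 and 0.19, 0.28, 0.52 and 0.094 on SOD1G93A replicates 1 to 4. The highest WT array lay just below the lowest SOD1G93A array. The change was 0.43 (SE 0.13, p = 0.00770 from limma), with an exact two-sided permutation p of 0.0286, the smallest that 4 arrays against 4 allow, and both further called probes of the gene changed the same way, by 0.51 and 0.18.

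Npc1 and Edem2 were also among the 12 highest. Npc1, which exports cholesterol from late endosomes and lysosomes, was at -0.71, -0.62, -0.45 and -0.40 on the WT arrays and -0.29, -0.15, -0.24 and 0.038 on the SOD1G93A arrays, a change of 0.38 (SE 0.094, p = 0.00230 from limma, exact p = 0.0286). Edem2, which directs misfolded glycoproteins out of the endoplasmic reticulum for degradation, was at 0.33, 0.097, 0.15 and 0.072 and at 0.43, 0.50, 0.55 and 0.52, a change of 0.34 (SE 0.072, p = 0.000836 from limma, exact p = 0.0286). The groups were apart in both genes by the rule of choice, and the 4 SOD1G93A arrays of Edem2 lay within a narrow band. Myo1d, an unconventional myosin, changed by 0.34, and Tmbim1, a membrane protein of the same family as Bax inhibitor 1, by 0.31.

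The rest of the 12 had varied roles. Gas6, the ligand of the Tyro3, Axl and Mer receptors, was at -0.14, -0.36, 0.063 and -0.017 in WT and 0.16, 0.13, 0.36 and 0.19 in SOD1G93A, a change of 0.32 (SE 0.097, p = 0.00733 from limma, exact p = 0.0286). Pdlim2, an adaptor with a PDZ and a LIM domain, was at 1.09, 1.12, 0.79 and 1.12 and at 1.35, 1.405, 1.51 and 1.39, a change of 0.39 (SE 0.085, p = 0.00101 from limma, exact p = 0.0286). WT replicate 3 lay below the other WT arrays of Pdlim2, which were nearly level with one another. Nkd1, an inhibitor of Wnt signaling, changed by 0.35, Parp1, which builds poly(ADP-ribose) at DNA breaks, by 0.35, Arhgap23, a GTPase activating protein, by 0.32, Strn4, a scaffold of protein phosphatase complexes, by 0.32, and Efl1, a GTPase of large ribosomal subunit maturation, by 0.31. Of the 12 genes 11 stayed past the threshold in all 21 other settings tried, and Npc1 missed it in 1, without the 3 arrays high in muscle genes. The reset of bright backgrounds and the removal of each array in turn are among these settings. All of them reuse all or most of the arrays by which the genes were chosen.

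**Figure D2:**
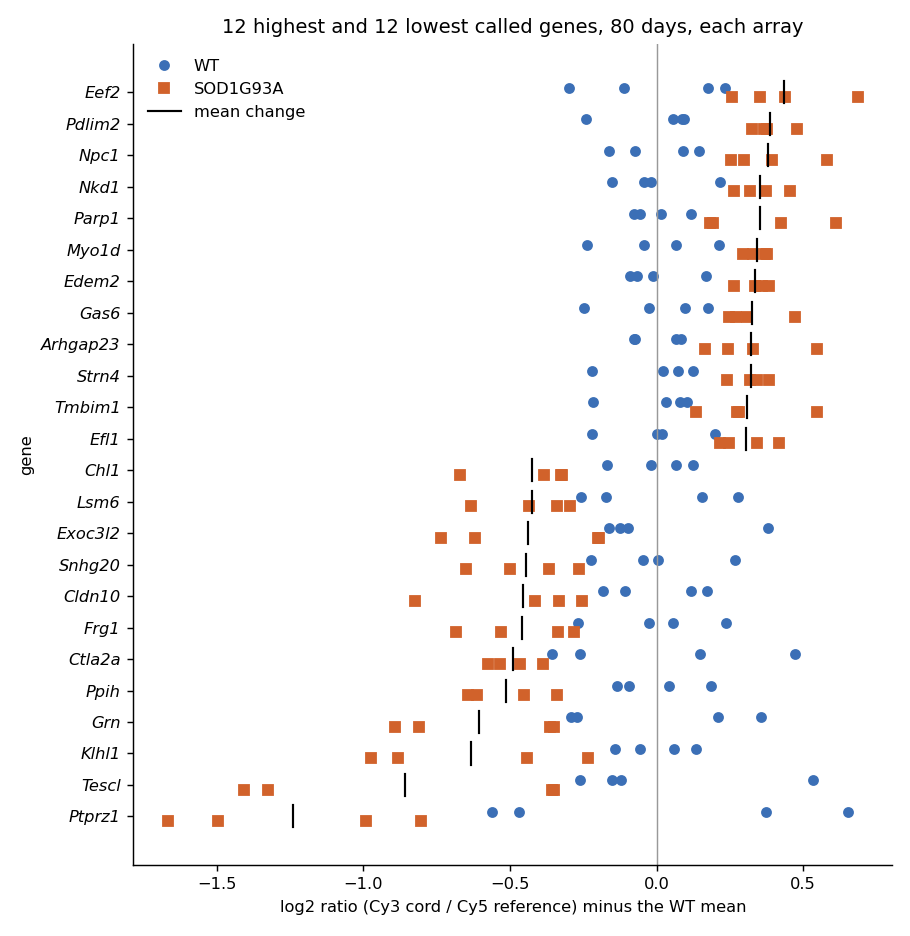
Log2 ratio of Cy3 to Cy5 on each array minus the WT mean (horizontal axis) for the 12 highest and 12 lowest called genes whose groups do not overlap. Blue circles are the 4 WT arrays, orange squares the 4 SOD1G93A arrays and the black line the mean change. The gains of the 12 higher genes run from 0.31 to 0.43, while the lower genes reach -1.24 for the bright Ptprz1 probe.

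The largest decrease was measured by a probe for Ptprz1, a receptor tyrosine phosphatase of glia with chondroitin sulfate chains. Probe A_52_P527944 (chromosome 6, 22942347 to 22942406) was at 1.26, 2.20, 1.36 and 2.48 on the WT arrays and 0.84, 1.02, 0.33 and 0.16 on the SOD1G93A arrays, a change of -1.24 (SE 0.29, p = 0.00150 from limma, exact permutation p = 0.0286). All SOD1G93A arrays lay below all WT arrays, and WT replicates 2 and 4 were about 1 log2 unit above WT replicates 1 and 3. The other probes of Ptprz1 changed by -0.30 (SE 0.19), -0.063 and 0.041, and none of these was called. The bright probe is shown beside the next brightest, since the reading of the gene turns on which of them is used.
Ptprz1 A_52_P527944: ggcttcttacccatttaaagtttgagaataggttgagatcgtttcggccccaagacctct
Ptprz1 A_51_P206405: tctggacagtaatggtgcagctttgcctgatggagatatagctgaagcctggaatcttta
Probe A_52_P527944 was the seventh brightest in Cy3 of all probes tested, with a mean log2 intensity of both channels of 16.4, against 8.84 for A_51_P206405. It shares no run of 20 bases, on either strand, with any other of the 41174 probes. Its letters read on the other strand are, from general knowledge, those of a conserved stretch of the large ribosomal RNA, for which no file was at hand, and which RNA the probe bound on these arrays was not tested. Its value is therefore given for the probe and not for the gene.

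Grn, the gene of progranulin, a lysosomal and secreted glycoprotein, gave probes that disagree in the same manner. The bright probe A_52_P508750 was at 0.68, 1.18, 0.70 and 1.33 in WT and 0.62, 0.61, 0.080 and 0.16 in SOD1G93A, a change of -0.60 (SE 0.18, p = 0.00655 from limma, exact p = 0.0286). Here too WT replicates 2 and 4 were high and SOD1G93A replicates 3 and 4 low, as in the Ptprz1 probe. The other Grn probe, A_51_P192800, changed by 0.19 (SE 0.28), so that no direction can be given for Grn.

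The remaining lower genes were read by dim to moderately bright probes, with mean log2 intensities from 7.83 (Tescl), 8.03 (Klhl1) and 8.05 (Exoc3l2) to 11.5 (Lsm6). Tescl, a relative of the calcium-binding protein tescalcin, was at 0.38, 0.49, 0.52 and 1.18 in WT and 0.30, -0.76, -0.68 and 0.29 in SOD1G93A, a difference of -0.86 (SE 0.27). It was above background on 4 WT and only 2 SOD1G93A arrays, so that it passed the filter through WT alone, and its difference, between -2.08 and -0.53 over the other settings, is given without a test. Klhl1, a kelch-like protein of neurons, was at 3.67, 3.86, 3.59 and 3.79 and at 3.495, 3.29, 2.85 and 2.75, a change of -0.63 (SE 0.15, p = 0.00205 from limma, exact p = 0.0286). SOD1G93A replicates 3 and 4 lay well below replicates 1 and 2.

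Ppih, a cyclophilin of the spliceosome, had the smallest p of any gene when each was read by its brightest probe. It was at -0.21, 0.11, -0.036 and -0.17 on the WT arrays and -0.42, -0.53, -0.72 and -0.69 on the SOD1G93A arrays, a change of -0.51 (SE 0.094, p = 0.000271 from limma, exact permutation p = 0.0286). All SOD1G93A arrays lay below all WT arrays, with replicates 3 and 4 the lowest. A second Ppih probe changed by -0.14 (SE 0.078) and was not called. Chl1, a neural cell adhesion molecule related to L1, was at 6.10, 5.81, 6.04 and 5.96 and at 5.59, 5.30, 5.65 and 5.65, a change of -0.43 (SE 0.096, p = 0.00128 from limma, exact p = 0.0286). A second Chl1 probe changed by -0.12 (SE 0.18) and was not called. Lsm6, a subunit of the Lsm ring that binds U6 RNA and decaying messages, changed by -0.43 and by -0.45 on another called probe, while probe A_51_P152802 changed by 0.042. Ctla2a, a cysteine protease inhibitor, changed by -0.49, Frg1, a nuclear RNA-binding protein, by -0.46, Cldn10, a claudin of tight junctions, by -0.46, the noncoding RNA Snhg20 by -0.45, and Exoc3l2, a relative of an exocyst subunit, by -0.44. Of the lower genes other than Tescl, Ptprz1, Ppih, Frg1, Cldn10 and Lsm6 were past the threshold in all 21 other settings, and each of the other 6 in at least 16 of 21.

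The MHC class I genes, whose proteins present peptides at the cell surface, were the list with the largest median change upward of those with any call. Of 15 genes tested, 7 were higher and 0 lower, with a median change of 0.29 against -0.0059 over all genes and 2.05% of all genes higher. The 7 were Tap2, H2-Q10, H2-T23, H2-Q2, H2-Q7, H2-Q5 and H2-D1. Tap2, which carries peptides into the endoplasmic reticulum, was the 1 class I gene whose groups did not overlap. It was at 0.023, -0.23, -0.11 and -0.14 in WT and 0.10, 0.22, 0.11 and 0.22 in SOD1G93A, a change of 0.28 (SE 0.070, p = 0.00279 from limma, exact p = 0.0286).

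Most H2 probes shared a pattern over the arrays, with H2-Q8, H2-M3 and probe A_51_P230269 of H2-Q10 among the exceptions. H2-Q2 (probe A_52_P313279, chromosome 17, 33361545 to 33361604) was at -0.17, -1.08, -0.53 and -1.46 on the WT arrays and -0.37, -0.24, 0.19 and 0.085 on the SOD1G93A arrays, a change of 0.72 (SE 0.25, p = 0.0154 from limma, exact permutation p = 0.0857). H2-T23, a nonclassical class I gene, was at -0.14, -1.04, -0.62 and -1.13 and at -0.25, -0.19, -0.041 and -0.014, a change of 0.61 (SE 0.19, p = 0.00862 from limma, exact permutation p = 0.0857). In both genes WT replicates 2 and 4 were low and WT replicate 1 lay inside the SOD1G93A range, so that the groups overlapped. H2-Q7 changed by 0.58, H2-D1 by 0.57 and H2-Q5 by 0.53, with the same WT arrays low. By position probe A_52_P313279 of H2-Q2 lay next to the H2-D1 probe (33361850 to 33362082). The other H2-Q2 probe, A_51_P219789, lay at 33440548 to 33440607 and changed by 0.59.

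These probes are not independent readings, since several class I transcripts are alike. The letters are shown for 2 pairs of probes of different genes, with the run that both probes of a pair hold in capitals.
H2-Q5 A_51_P400752: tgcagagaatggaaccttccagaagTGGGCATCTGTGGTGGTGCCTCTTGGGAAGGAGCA
H2-Q10 A_51_P496997: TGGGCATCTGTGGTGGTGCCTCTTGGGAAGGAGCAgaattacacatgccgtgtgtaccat
H2-Q7 A_51_P262079: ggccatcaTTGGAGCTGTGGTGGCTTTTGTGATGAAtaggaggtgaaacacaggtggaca
H2-T23 A_51_P237754: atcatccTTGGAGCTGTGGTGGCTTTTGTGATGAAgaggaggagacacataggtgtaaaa
The first pair shares 35 of 60 bases and the second 28. On the arrays, A_51_P496997 was at -0.18, -0.79, -0.36 and -1.01 in WT and -0.28, -0.27, -0.0010 and 0.27 in SOD1G93A, and A_51_P400752 was at -0.20, -0.79, -0.37 and -0.91 and at -0.31, -0.24, 0.024 and 0.37, close to each other on every array. Which of the class I transcripts each probe bound was not tested. H2-Q10 has further probes that differ, with 0.41 on A_52_P428354 and -0.00063 on A_51_P230269. The brightest probe of H2-K1 was not called (0.29), while another was (0.54, p = 0.00815 from limma, exact p = 0.0857), and likewise for H2-Q1 (0.30 and 0.52). Among the class I genes placed on chromosome 17, those without a called probe were H2-T22 (0.23), Tapbp (0.042), H2-M3 (-0.017) and H2-Q8 (-0.092). The list also held uncalled members that are not among these.

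The class I count held under most settings. It was between 5 and 8 of 15 genes higher with 1 array left out, 8 with the replicate number as a block and 4 with the spread taken from all 16 arrays. Without SOD1G93A replicate 4, the array with the highest microglia score, 8 genes were higher and 2 lower, with a median of 0.26. The 5 MHC class II genes tested, the 15 complement genes and the 20 interferon response genes held no called member, with medians of -0.044, 0.015 and 0.14.

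**Figure D3:**
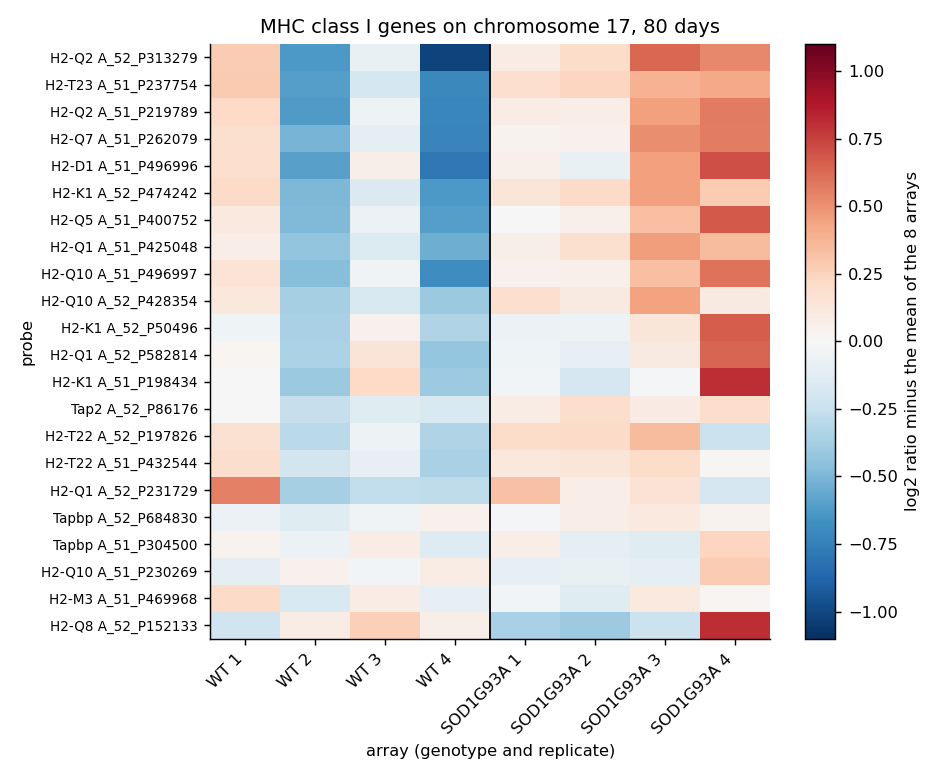
Log2 ratio minus the mean of the 8 arrays (color) for 22 probes of MHC class I and peptide loading genes (rows), with the 4 WT arrays left of the black line and the 4 SOD1G93A arrays right of it. Most H2 probes are low on WT replicates 2 and 4 and high on SOD1G93A replicates 3 and 4, while WT replicate 1 resembles the SOD1G93A arrays, and H2-Q8 is highest on SOD1G93A replicate 4.

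Probes around the class I genes were called more often than those on the rest of chromosome 17. Some places on other chromosomes had a larger share, such as 30.4% of 23 probes between 40 and 45 Mb of chromosome 6. On chromosome 17, between 32074445 and 35427193, the outermost H2 probes tested (those of H2-K1 and H2-M3), 29 of 153 probes (19%) were called, 22 higher and 7 lower, against 4.40% of the 841 probes on the rest of the chromosome. Of the 20 class I probes in the stretch 11 were called, all higher, and of the 133 others 18 (13.5%), 11 higher and 7 lower. Among the others, Ddr1, a collagen receptor kinase, was at 0.72, 0.64, 0.73 and 0.67 in WT and 0.88, 0.87, 0.93 and 1.22 in SOD1G93A, a change of 0.28 (p = 0.00726 from limma, exact p = 0.0286). Rpp21, a subunit of ribonuclease P, was at 0.37, 0.30, 0.65 and 0.36 and at 0.15, 0.069, 0.076 and 0.19, a change of -0.30 (p = 0.00465 from limma, exact p = 0.0286). Neither gene had overlapping groups, and neither had WT replicates 2 and 4 apart from the rest, unlike most H2 probes. Gnl1, a putative GTPase, changed by 0.32 and 0.39 on its 2 probes, and Rnf5, a ubiquitin ligase of the endoplasmic reticulum, by 0.30 and 0.29. Some neighbours did share the array pattern of the H2 probes. Vars was at 0.24, -0.12, 0.19 and -0.18 in WT, and both Gnl1 probes were also lowest on WT replicates 2 and 4. Bag6 and Abhd16a, also higher, were lowest on WT replicates 3 and 4.

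A second group of neighbours lay on chromosome 8, the chromosome with the largest share of called probes (7.99%, 88 of 1101). Ocel1 (69839795 to 69839997) was at 0.30, 0.097, 0.19 and 0.65 on the WT arrays and -1.11, 0.098, -1.15 and -0.88 on the SOD1G93A arrays, a change of -1.07 (SE 0.25, p = 0.00158 from limma, exact p = 0.0571). Fam32a (70745348 to 70745407) was at 0.90, 0.66, 0.82 and 1.26 and at -0.13, 0.83, 0.027 and -0.26, a change of -0.79 (SE 0.22, p = 0.00452 from limma, exact p = 0.0857). In both genes SOD1G93A replicate 2 lay at the level of the WT arrays, and the other 3 SOD1G93A arrays lay below all WT arrays. These genes were chosen after their values were seen, because of their place. Fcho1, an endocytic protein, changed by -0.54 and Calr3, a calreticulin of the testis, by -0.39, again with replicate 2 highest among the SOD1G93A arrays, while Slc35e1 changed by 0.22 with replicate 2 next to lowest among them. In the 5 Mb from 70 Mb, 8 of 49 probes were called (16.3%), and the median over windows of that size with at least 20 probes was 5%. The largest share was on chromosome 6 from 40 to 45 Mb, with 7 of 23 probes called, 6 of them lower. The labels give a mixed B6SJL background, and which parental alleles each mouse carried at these places was not measured here.

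Mitochondrial respiratory chain genes had more lower than higher calls. Complex I takes electrons from NADH, and 7 of its 36 subunits tested were lower and 0 higher, with a median change of -0.074 against 3.33% of all genes lower. The 7 were Ndufb3, Ndufa5, Ndufb7, Ndufa2, Ndufa11, Ndufa13 and Ndufa3, and 29 of the 36 had a negative sign. Ndufb3 was at 1.04, 0.98, 0.96 and 1.03 on the WT arrays and 0.79, 0.79, 0.71 and 0.82 on the SOD1G93A arrays, a change of -0.23 (SE 0.057, p = 0.00243 from limma, exact p = 0.0286). Ndufa5 was at 0.11, 0.17, 0.42 and 0.25 and at 0.057, -0.0020, -0.047 and -0.0040, a change of -0.24 (SE 0.074, p = 0.00975 from limma, exact p = 0.0286). Neither overlapped between the groups, and the SOD1G93A arrays lay closer together than the WT arrays in Ndufa5.

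In complexes II to V, 9 of 45 subunits were lower and 2 higher, with a median of -0.063, against 3.33% lower and 2.05% higher over all genes. Cox7b, a small subunit of cytochrome oxidase, was at -0.59, -0.61, -0.55 and -0.69 in WT and -0.98, -0.87, -0.87 and -0.99 in SOD1G93A, a change of -0.32 (SE 0.062, p = 0.000470 from limma, exact p = 0.0286). Atp5mpl, a small protein of the ATP synthase, was at 0.24, 0.26, 0.18 and 0.22 and at 0.025, -0.067, -0.13 and -0.10, a change of -0.30 (SE 0.059, p = 0.000557 from limma, exact p = 0.0286). The groups were apart in both genes by more than the range of either group in Cox7b and by about that range in Atp5mpl. The other lower subunits were Uqcrh (-0.23), Cox7a2, Uqcr11, Uqcrb, Atp5j2, Cox8a and Cox6a1. Sdhc, a membrane anchor of complex II, was higher (0.19, SE 0.056, p = 0.00632 from limma, exact p = 0.0286), as was Atp5a1, the alpha subunit of ATP synthase.

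The subunit lists are bright, with median log2 intensities of 13.1 and 13.7, the range in which all probes were called more often and lower. Centring without loess left 3 complex I subunits lower and, in complexes II to V, 2 lower and 2 higher, with medians of -0.013 and -0.0081, and the cause was not tested. Without WT replicate 4 there were 4 complex I subunits lower. The genes of the TCA cycle, which feeds the chain, had 1 of 17 higher, 0 lower and a median of 0.055, against 2.05% of all genes higher. The 1 was Idh3a, a subunit of the NAD-dependent isocitrate dehydrogenase (0.22, p = 0.0281 from limma, exact p = 0.0286). Of 15 glycolysis genes 0 were called, with a median of 0.020.

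Ribosomal protein genes also had more lower than higher calls, and their changes were small. Of 83 cytosolic ribosomal proteins tested, 10 were lower and 1 higher, 64 had a negative sign, and the median was -0.095, against 3.33% lower and 2.05% higher over all genes. Rpl35a, of the large subunit, was at -0.79, -0.96, -0.87 and -1.01 on the WT arrays and -1.103, -1.31, -1.19 and -1.05 on the SOD1G93A arrays, a change of -0.26 (SE 0.077, p = 0.00777 from limma, exact p = 0.0286). Rpl4, of the same subunit, was the 1 higher, at -0.90, -0.95, -0.73 and -0.94 and at -0.63, -0.61, -0.46 and -0.65, a change of 0.29 (SE 0.074, p = 0.00249 from limma, exact p = 0.0286). The groups were apart in both genes, in opposite directions. The lower genes also included Rps25 (-0.21), Rps27, Rpl37, Rpl41, Rpl36a, Rpl39, Rpl10a and Rpl22l1. The count of lower genes was 2 without SOD1G93A replicate 2, 3 without WT replicate 3, 4 without WT replicate 4 and 21 without SOD1G93A replicate 4, and 6 without SOD1G93A replicate 3, so that single arrays moved it widely. The list is the brightest of all, with a median log2 intensity of 14.2, and the processed signals gave 2 lower and 1 higher and centring without loess 2 lower and 5 higher.

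Mitochondrial ribosomal proteins, which translate the messages of the mitochondrial genome, had 9 of 75 lower and 0 higher, with a median of -0.044. Over all genes 3.33% were lower and 2.05% higher. They are less bright, with a median log2 intensity of 10.9. Mrps11 was at 0.34, 0.35, 0.20 and 0.24 in WT and 0.053, 0.0010, 0.059 and 0.033 in SOD1G93A, a change of -0.25 (SE 0.060, p = 0.00198 from limma, exact p = 0.0286). The 4 SOD1G93A arrays lay below every WT array. Mrps24 changed by -0.18, Mrpl42 by -0.20 and Mrpl12 by -0.21. Centring without loess turned the median to 0.030, with 0 lower and 1 higher, and 1 was lower without the 3 arrays high in muscle genes. The count was 4 without SOD1G93A replicate 2 and 5 without SOD1G93A replicate 3.

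Translation and splicing factors had called members in both directions, against 2.05% higher and 3.33% lower over all genes. Of 65 translation factors 2 were higher, Eef2 and Eif6, a factor that keeps the ribosomal subunits apart (0.16), and 2 lower, Eef1akmt1, a methyltransferase of elongation factor 1 alpha (-0.17), and Eif2s2, the beta subunit of initiation factor 2 (-0.15). A further tested probe of Eif6 changed by 0.17, not called, and another by -0.014. The other tested probe of Eif2s2 changed by 0.087. Of 63 spliceosome, Lsm and hnRNP genes 2 were higher, Lsm4 (0.17) and U2af1, the small subunit of the factor that reads the 3' splice site (0.25), and 4 lower, Lsm6, Snrpg (-0.20), Sf3b1 and Hnrnph1. The medians of the lists were 0.011 and -0.024, and with 1 array left out 1 to 5 translation factors were higher and 0 to 3 lower. Within the Lsm ring the changes of Lsm4 and Lsm6 were thus opposite, the WT and SOD1G93A arrays of Lsm4 lying at -0.49, -0.42, -0.54 and -0.52 and at -0.27, -0.38, -0.36 and -0.26.

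Protein quality control genes gave few calls, against 2.05% higher and 3.33% lower over all genes. Of 37 proteasome subunits 1 was higher, Psmb2 (0.18), and 2 lower, Psmb3 (-0.22) and Psmb6 (-0.13), all of them beta subunits of the core particle. The call of Psmb6 was past the threshold in only 6 of 21 other settings and that of Psmb2 in 10. Psmb3 was at -0.017, 0.037, 0.053 and 0.033 in WT and -0.14, -0.17, -0.11 and -0.37 in SOD1G93A, with SOD1G93A replicate 4 the lowest. A second Psmb3 probe changed by -0.064 (SE 0.099) and was not called. Of 33 ubiquitin-conjugating enzymes 4 were higher, among them Ube2o (0.23), Ube2m (0.34) and Ube2h, and 2 lower, Ube2w (-0.18) and Ube2q2 (-0.20). Ube2m conjugates NEDD8 rather than ubiquitin. A second probe of Ube2o changed by -0.055 and one of Ube2q2 by 0.0029. Ube2m was at 1.16, 1.11, 0.87 and 0.59 and at 1.18, 1.54, 1.37 and 1.02, with WT replicate 4 low and the groups overlapping. The medians of the lists were -0.026 and 0.010, and with 1 array left out 0 to 5 of the conjugating enzymes were higher and 0 to 4 lower, with 0 called without WT replicate 4 or SOD1G93A replicate 3.

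Of 18 heat shock proteins 1 was higher, Dnajb2, a neuronal cochaperone of Hsp70 (0.17, p = 0.0319 from limma, exact p = 0.0571), and 0 lower, with a median of 0.045. Of 28 endoplasmic reticulum stress genes Edem2 alone was called, and the median was -0.041. Of 29 lysosome and autophagy genes Npc1 was higher and the bright Grn probe lower, 21 had a positive sign, and the median was 0.076. These shares are close to those over all genes.

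**Figure D4:**
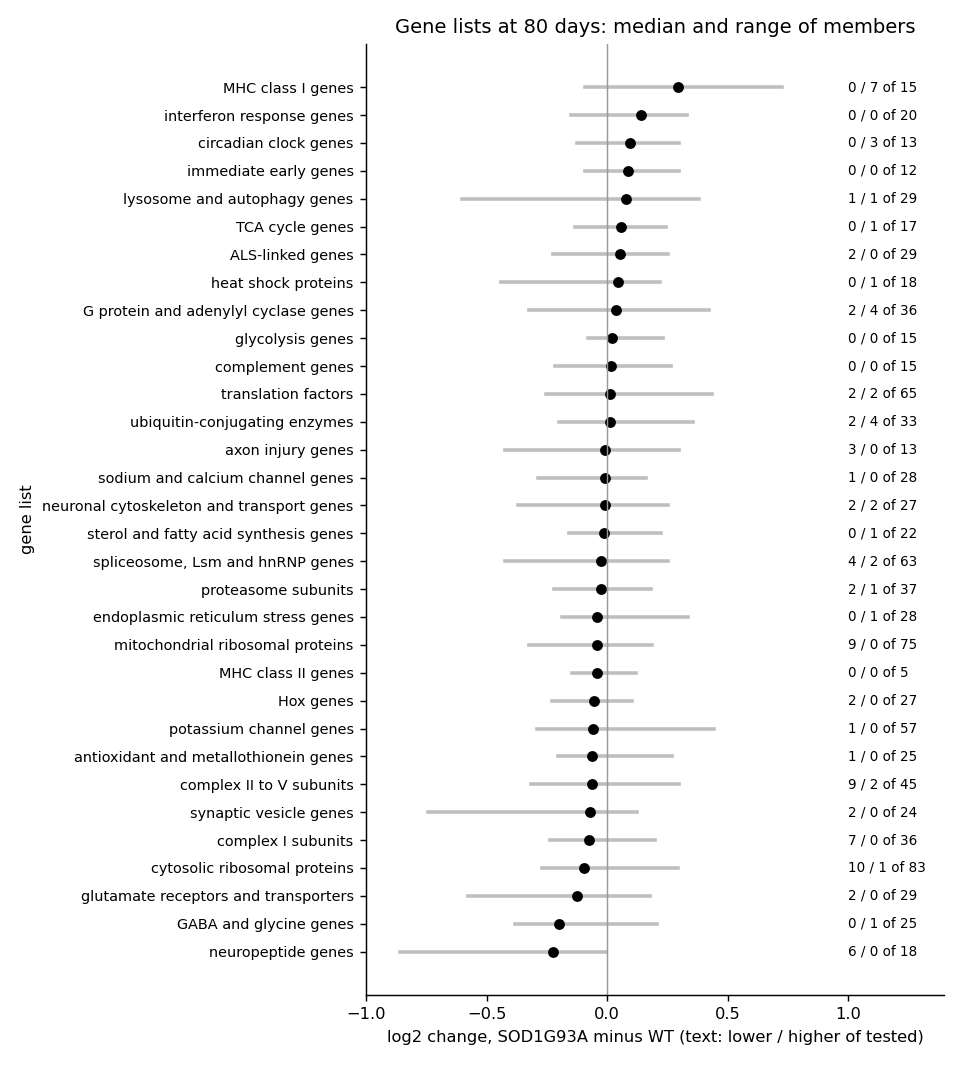
Median log2 change, SOD1G93A minus WT (black points), and range of the members (gray lines) of each functional gene list, the cell type lists left out, 1 probe a gene, with the numbers of members lower and higher and the number tested at the right. MHC class I genes have the highest median (0.29) and neuropeptide genes the lowest (-0.23) of those shown, with most lists between -0.10 and 0.10.

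Neuropeptide precursors, many of them made by dorsal horn interneurons and sensory afferents, had the lowest median of the functional lists, at -0.23. Of 18 genes tested 6 were lower, against 3.33% over all genes, and 0 higher, and all 18 had a negative sign. Pdyn, the precursor of the dynorphins, was at 5.27, 4.52, 5.76 and 4.71 on the WT arrays and 4.69, 4.31, 4.20 and 3.62 on the SOD1G93A arrays, a change of -0.86 (SE 0.28, p = 0.0117 from limma, exact permutation p = 0.0571). The WT arrays spread over more than 1 log2 unit, and SOD1G93A replicate 1 lay within them. Gal, the precursor of galanin, was at 2.10, 1.90, 2.20 and 2.02 and at 2.01, 1.79, 1.72 and 1.56, a change of -0.29 (SE 0.10, p = 0.0173 from limma, exact p = 0.0571). The others were Nmu, of neuromedin U (-0.37), Calcb, of a calcitonin gene-related peptide (-0.27), Adcyap1, of PACAP (-0.26), and Npff. The list scored 0.20 to -0.032 on the WT arrays and 0.079 to -0.34 on the SOD1G93A arrays, with SOD1G93A replicate 4, the array highest in microglia genes, at the low end. Without the 3 arrays high in muscle genes 0 of the 18 were called and the median was -0.093, and 2 were lower without WT replicate 1, 3 without WT replicate 3 or SOD1G93A replicate 4, 4 without SOD1G93A replicate 3 or WT replicate 4, and 10 without SOD1G93A replicate 1. The part of the other cells in the list's values was not tested.

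Genes of fast transmission had negative medians with few calls, against 2.05% higher and 3.33% lower over all genes. Of 29 glutamate receptors and transporters 2 were lower, Grik1, a kainate receptor subunit (-0.44), and Slc1a3, the astrocyte glutamate transporter GLAST (-0.24), 28 had a negative sign, and the median was -0.13. Of 25 GABA and glycine genes 0 were lower and 1 higher, Slc6a9, the glial glycine transporter, with a median of -0.20. Slc6a9 was at 3.32, 3.32, 3.36 and 3.53 in WT and 3.66, 3.71, 3.55 and 3.44 in SOD1G93A, a change of 0.21 (SE 0.079, p = 0.0252 from limma, exact p = 0.0571). SOD1G93A replicate 4 was the lowest of its group there, and on it the scores of the 2 lists were -0.33 and -0.41, the lowest of any array. Without it the medians were -0.039 and -0.060, and without the 3 arrays high in muscle genes -0.0016 and -0.039. The number of lower glutamate genes was 0 without WT replicate 1 or SOD1G93A replicate 4 and 10 without SOD1G93A replicate 1, and that of lower GABA and glycine genes 8 without SOD1G93A replicate 1.

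Of 24 synaptic vesicle genes 2 were lower, the calcium sensors of vesicle release Syt10 and Syt1, against 3.33% of all genes lower. Syt10 was at 1.32, 1.58, 0.93 and 1.76 on the WT arrays and 0.82, 0.996, 0.54 and 0.25 on the SOD1G93A arrays, a change of -0.74 (SE 0.20, p = 0.00343 from limma, exact permutation p = 0.0571). The WT array that overlapped was replicate 3. A second Syt10 probe changed by -0.074 (SE 0.13) and was not called. Syt1 changed by -0.45, and by -0.59 on another called probe, while A_52_P679799 changed by 0.037. The median of the list was -0.071. Among 57 potassium channel genes Kcnc2 (-0.29) and among 28 sodium and calcium channel genes Cacna2d1 (-0.20) were lower and none higher, with medians of -0.058 and -0.0087.

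G protein and adenylyl cyclase genes had 4 of 36 higher and 2 lower, with a median of 0.036, against 2.05% higher and 3.33% lower over all genes. Gna12, an alpha subunit, changed by 0.22, and by 0.42 and 0.39 on 2 further called probes. It was at 0.67, 0.90, 0.72 and 0.91 in WT and 0.91, 1.07, 1.05 and 1.07 in SOD1G93A on the first of these. Gng12 (0.17), Gnas and Adcy5 were the other higher genes, and Gnal, an alpha subunit that stimulates adenylyl cyclase (-0.32), and Gng13 (-0.22) the lower. The value of Gng12 rests on 3 WT arrays, since its spot was an outlier on WT replicate 4. With 1 array left out 1 to 6 of the 36 were higher and 0 to 3 lower, with 1 of each without SOD1G93A replicate 3.

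No list of microglia, complement or interferon response genes had a called gene at this age. Of 20 microglia genes 0 were called, with a median of 0.088, and of 17 genes of disease-associated microglia 0, with a median of 0.16. Without SOD1G93A replicate 4 these medians were -0.11 and -0.10, and that of the interferon response genes was -0.0043. Over the fits with 1 array left out the same medians reached 0.22, 0.28 and 0.19 at the other end. In those fits 0 to 2 disease-associated microglia genes and 0 to 2 interferon response genes were higher, and 0 to 1 of each list lower. Aif1, the microglial protein Iba1, was at 0.83, 0.70, 1.72 and 0.82 in WT and 0.79, 0.52, 0.90 and 1.58 in SOD1G93A, a change of -0.073 (SE 0.26, p = 0.783 from limma, exact permutation p = 0.743). WT replicate 3 and SOD1G93A replicate 4 were the only arrays over 1.

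Astrocyte genes gave 1 call, where 3.33% of all genes were lower and 2.05% higher. Of 16 only Slc1a3 was called, lower, and the median was -0.045. Its p was 0.0498 from limma (exact p = 0.143), and it was past the threshold in only 6 of 21 other settings. Gfap, the astrocyte filament, was at 6.29, 6.41, 6.79 and 6.58 in WT and 6.12, 6.13, 6.55 and 6.37 in SOD1G93A, a change of -0.22 (SE 0.13, p = 0.109 from limma, exact permutation p = 0.171). It was lower in SOD1G93A within each replicate number, and with the number as a block its p from limma was 0.00907, while a second probe changed by 0.018. Of 12 reactive astrocyte genes 1 was lower, Cp, the copper ferroxidase ceruloplasmin (-0.42), with a median of 0.023. The call of Cp was lost in 9 of 21 other settings, and the median was -0.23 without SOD1G93A replicate 4 and, with 3 lower, -0.28 without the 3 arrays high in muscle genes.

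Oligodendrocyte genes had members on both sides, against 2.05% higher and 3.33% lower over all genes. Of 18 tested 2 were higher, among them Qdpr, which regenerates tetrahydrobiopterin, and 1 lower, Cldn11, the claudin of central myelin (-0.21). Qdpr was at 2.77, 2.78, 2.60 and 2.81 on the WT arrays and 2.96, 2.93, 2.94 and 2.90 on the SOD1G93A arrays, a change of 0.19 (SE 0.064, p = 0.0140 from limma, exact p = 0.0286). Mbp, myelin basic protein, changed by -0.081 (SE 0.11, p = 0.491 from limma, exact p = 0.486), with 0.020 and 0.13 on further probes of opposite sign, and the median of the list was -0.00093.

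Neuronal identity genes gave 1 call, where 3.33% of all genes were lower and 2.05% higher. Of 9 motor neuron genes 0 were called, with a median of 0.0073, and of 14 general neuron genes Syt1 alone, with a median of -0.062. Snap25, of the presynaptic fusion complex, was at 6.98, 7.19, 7.16 and 7.42 in WT and 7.28, 7.195, 6.96 and 6.91 in SOD1G93A, a change of -0.10 (p = 0.379 from limma, exact permutation p = 0.514). Among lists of other cells, 0 of 7 Schwann cell genes, 0 of 4 erythrocyte genes and 0 of 11 skeletal muscle genes were called, with medians of -0.096, -0.12 and 0.50, and that of the Schwann cell genes was 0.33, with 1 higher, without the 3 arrays high in muscle genes. The muscle genes were high on 1 WT array and 2 SOD1G93A arrays, so that the groups overlapped.

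Single genes of barrier and border cells were called, all lower, where 3.33% of all genes were lower. With 1 call a list, these are no trait of the cell types. Plvap, of the diaphragm of fenestrated vessels, was at -1.75, -1.74, -1.57 and -1.59 on the WT arrays and -2.02, -1.86, -1.98 and -1.83 on the SOD1G93A arrays, a change of -0.26 (SE 0.073, p = 0.00496 from limma, exact p = 0.0286). It was the 1 of 11 endothelial genes called, and the median was 0.00064. Ptgds, the prostaglandin D synthase of meninges and choroid plexus, was the 1 of 11 meningeal fibroblast genes called (-0.30), with a median of -0.22. For the meningeal fibroblast genes the median was -0.038, with 2 higher and 0 lower, without WT replicate 1, the array on which they were high, and 0.22, with 2 higher and 0 lower, without the 3 arrays high in muscle genes. Kl, the klotho protein of choroid plexus, was the 1 of 5 ependyma and choroid plexus genes (-0.14), Calcb the 1 of 3 sensory neuron genes and Nppa, of the heart, the 1 of 6 neonatal organ genes (-0.15). Their medians were 0.0069, -0.070 and 0.0077.

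Cytoskeletal genes of neurons were called in both directions, against 2.05% higher and 3.33% lower over all genes. Of 27 genes of the neuronal cytoskeleton and axonal transport, Tuba1a, an alpha tubulin (0.21), and Dync1h1, the dynein heavy chain (0.19), were higher, and the microtubule-associated proteins Map1b (-0.37) and Map2 (-0.22) lower, with a median of -0.011. A second Dync1h1 probe, A_52_P267784, was lower (-0.31, SE 0.13) and a further one, A_52_P412656, was at -0.048, so that no direction can be given for the gene. Map1b was at 3.46, 3.26, 3.49 and 3.34 in WT and 3.39, 2.83, 3.102 and 2.75 in SOD1G93A, with SOD1G93A replicate 1 at the level of WT. Of 13 axon injury genes 3 were lower, Chl1, Gal and Adcyap1, and 0 higher, with a median of -0.0074.

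Among genes mutated in ALS, 2 of 29 were lower and 0 higher, with a median of 0.051, against 3.33% of all genes lower. Nek1, a kinase of the DNA damage response, changed by -0.22 (p = 0.0263 from limma, exact p = 0.114). Mouse Sod1 (probe A_51_P367381, chromosome 16, 90276179 to 90276238) was at 0.062, 0.28, 0.24 and 0.30 on the WT arrays and 0.15, 0.027, -0.11 and 0.085 on the SOD1G93A arrays, a change of -0.18 (SE 0.079, p = 0.0446 from limma, exact permutation p = 0.0857). SOD1G93A replicate 1 lay above WT replicate 1, and the call was lost in 10 of 21 other settings. The probe was designed for the mouse message, and whether it reads human SOD1 was not tested, so it is no check of the transgene. Sod1 was also the 1 called of 25 antioxidant and metallothionein genes, which had a median of -0.062.

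The calls among clock genes were all upward. Of 13 circadian clock genes 3 were higher, against 2.05% over all genes, and 0 lower, with a median of 0.095. With 1 array left out 1 to 4 were higher, the fewest without SOD1G93A replicate 3. Dbp, a transcription factor driven directly by the clock, was at 1.48, 1.57, 1.33 and 1.498 in WT and 1.69, 1.62, 1.74 and 1.62 in SOD1G93A, a change of 0.20 (SE 0.069, p = 0.0170 from limma, exact p = 0.0286). Ciart, a repressor of the clock, was at 0.58, 0.20, 0.58 and 0.60 and at 0.79, 0.73, 0.98 and 0.66, a change of 0.30 (SE 0.11, p = 0.0186 from limma, exact p = 0.0286), and Cry2, of the negative limb, changed by 0.29 and was past the threshold in 16 of 21 other settings. Dbp and Ciart did not overlap between the groups, and WT replicate 2 of Ciart lay far below the other WT arrays. The hour at which each mouse was killed is not given in the sources used here.

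Lipid and patterning genes held few calls, against 2.05% higher and 3.33% lower over all genes. Fasn, the fatty acid synthase, was at 1.23, 1.12, 1.27 and 1.24 on the WT arrays and 1.46, 1.36, 1.44 and 1.48 on the SOD1G93A arrays, a change of 0.22 (SE 0.060, p = 0.00425 from limma, exact p = 0.0286). A second Fasn probe changed by 0.055 (SE 0.095) and was not called. Fasn was the 1 called of 22 sterol and fatty acid synthesis genes, whose median was -0.013. Of 27 Hox genes, which keep the positional identity of the cord, 2 were lower, Hoxa5 and Hoxb7 (-0.23), with a median of -0.054. Hoxa5 was at -0.043, -0.095, -0.20 and -0.051 in WT and -0.28, -0.26, -0.41 and -0.36 in SOD1G93A, a change of -0.23 (SE 0.065, p = 0.00566 from limma, exact p = 0.0286). Of 12 immediate early genes 0 were called, with a median of 0.088.

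The change between genotypes at 80 days was set against that at 40 days, measured on 8 other arrays with controls of their own. The interaction of genotype and age had a p under 0.05 for 792 of 21953 probes (3.61%), and limma with Benjamini-Hochberg adjustment called 0, with a smallest adjusted p of 0.821. That share is below the 0.05 which such a threshold gives on average when no probe differs. Of the probes called at 80 days 397 also had an interaction p under 0.05. Of the 99 genes that were named here by rule 37 had one, among them 10 of the 12 highest genes. Most of the 99 were chosen for their change at 80 days, which is part of this interaction. A share above the 3.61% of all probes follows in part from that choice. Without loess 28 of these 37 no longer had an interaction p under 0.05, and 89 probes had one in all. Edem2 changed by 0.34 at 80 and -0.068 at 40 days, a difference of 0.41 (SE 0.11), and Npc1 by 0.38 and -0.13, a difference of 0.51 (SE 0.16).

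Among lower genes, Ppih changed by -0.51 at 80 and 0.078 at 40 days, a difference of -0.59 (SE 0.15). Pdyn changed by -0.86 and 0.078, a difference of -0.94 (SE 0.43), and Cox7b by -0.32 and -0.0100, a difference of -0.31 (SE 0.10). All 3 were among those with an interaction p under 0.05. Lsm6 was at -0.43 and -0.39, a difference of -0.034 (SE 0.19), Nkd1 at 0.35 and 0.26 (0.097, SE 0.15), and Ocel1 at -1.07 and -0.80 (-0.27, SE 0.41). For these 3 genes the difference was within 1 SE, so that none was detectable with 4 arrays a group. Of the class I genes Tap2 alone had an interaction p under 0.05, with a change of -0.092 at 40 days, and H2-Q2 was at 0.13 there, with a difference of 0.59 (SE 0.52).

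**Figure D5:**
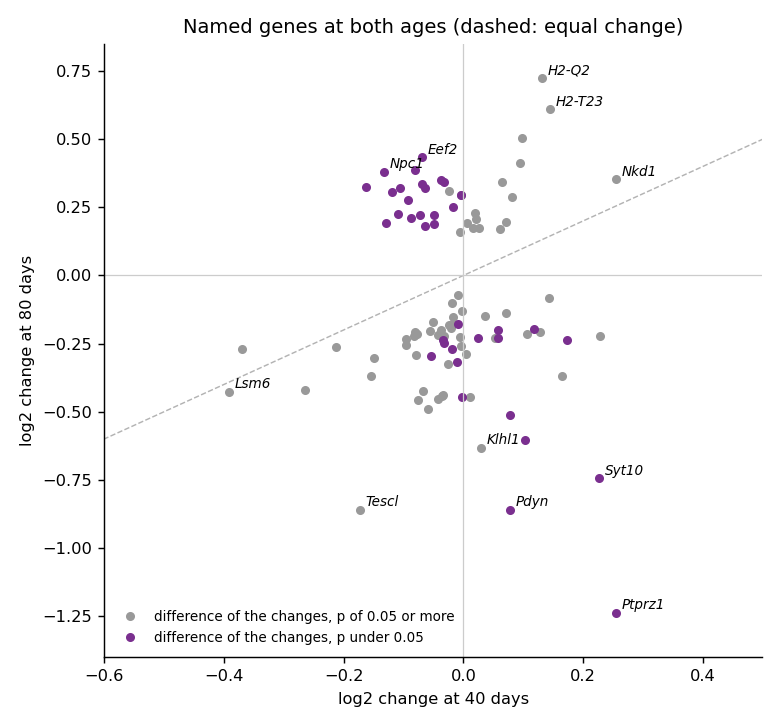
Log2 change, SOD1G93A minus WT, at 40 days (horizontal axis) and 80 days (vertical axis) of the 99 genes named by rule, each point 1 gene, with the dashed line at equal change. Purple points have a p under 0.05 for the difference between the ages. The genes were chosen for their change at 80 days, so that they lie away from 0 on the vertical axis, and only a few, such as Lsm6 and Nkd1, lie near the dashed line.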

How the data were processed

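The authors scanned the arrays and deposited Agilent Feature Extraction output (version 9.5.3.1 in the submitters' processing notes) with an intensity for each spot and channel, and a table of normalized log2 values of the Cy3 channel made by the authors with limma, used here as an alternative only. From the deposited median intensities, limma 3.58.1 in R 4.3.3 subtracted background (normexp, offset 50), normalized within arrays (loess) and between arrays (Aquantile), without control and outlier spots. Spots of a probe were averaged. Tested were probes measured on 2 or more arrays of each group whose Cy3 passed the scanner's background flag on 3 or 4 arrays of a group. Of 41174 probes 23075 were named by accession, 6582 by symbol and 3077 by synonym through RefSeq tables, 1449 kept the file's name and 6991 had none. Positions are those of the files, on NCBI35 (mm7).

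Groups were compared with lmFit and eBayes at an unadjusted p under 0.05, after the study's methods, with Benjamini-Hochberg values beside it. The ages were compared by the interaction over 16 arrays. Exact two-sided permutation tests, whose p is given as exact p, ran over the 70 splits of 8 arrays. For genes chosen because their groups do not overlap, this p was fixed by the choice. Each gene was read by its brightest tested probe. The genes named were, by rule, the 12 highest and 12 lowest called genes with groups that do not overlap, the gene with the smallest p and Sod1. Added to these were up to 4 called members of each list with the smallest p, and the tissue markers Chat, Gfap, Aif1, Mbp and Snap25. Other probes are given where their sign differs, and uncalled probes of the same sign for some genes only. Further genes are named by position, size or list membership. The members and lists were chosen with earlier results of these data known. The lists covered cell types, respiration, translation and splicing, protein quality control, immune genes, synapse and channels, the axon, ALS genes and others, each reported once. On simulated data of the same 21603 probes, changes of 0.25 on the log2 scale were recovered at 72%, of 0.5 at 98% and of 1 at 100%.

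The label numbers of the replicates are also the slide numbers, each slide holding 1 array of each group at a fixed position, so that position and genotype cannot be told apart. Deviations of same-numbered WT and SOD1G93A arrays correlated at 0.039, 0.12, 0.14 and -0.056, so the numbers were not taken to pair the samples. Alternatives were other background, dye and normalization settings, the deposited normalized values, no or a stricter filter, array weights, the number as a block, the spread of 16 arrays, each array left out and, chosen after seeing the data, the arrays high in microglia or muscle genes left out. Further animals named in the study's methods were not analysed here. A few further called genes are not reported here.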

Additional observations from a re-analysis of the deposited data

Results flagged for a closer look

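In 23 of 291 groups of 4 values tested, among the named genes and list scores, 1 array lay far from the other 3, where chance gives about 1 in 20. The measure is the gap of that array to its nearest neighbour over the range of the group.

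Of these groups 17 were WT. WT replicate 3 stood apart in the scores of reactive astrocyte genes (gap 0.964, score 0.39), microglia genes (0.864), disease-associated microglia genes (0.851), complement genes (0.905), interferon response genes (0.899) and mitochondrial ribosomal proteins (0.954, where it was lowest), and in Aif1 (0.873), Pdlim2 (0.892) and Calcb (0.924, where it was lowest). WT replicate 1 stood apart in the skeletal muscle score (0.871), the ALS-linked score (0.859, lowest), Grik1 (0.834) and Nek1 (0.905). WT replicate 2 was low in Ciart (0.948) and high in Uqcrh (0.862), and WT replicate 4 was apart in Exoc3l2 (0.880) and Cry2 (0.861). In the SOD1G93A group replicate 4 stood apart in the interferon response score (0.830) and the neonatal organ score (0.884), replicate 2 in the axon injury score (0.836), replicate 3 in Ube2o (0.853) and replicate 1 in Gna12 (0.849).

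For 37 of the 99 named genes the change at 80 days minus that at 40 days had an unadjusted p under 0.05 in limma's interaction test, and none passed Benjamini-Hochberg adjustment. Most of these genes were chosen for their change at 80 days, so the number follows in part from the choice. Among higher genes the differences on the log2 scale were 0.50 for Eef2, 0.47 for Pdlim2, 0.51 for Npc1, 0.39 for Parp1, 0.37 for Myo1d, 0.41 for Edem2, 0.49 for Gas6, 0.43 for Arhgap23, 0.39 for Strn4 and 0.425 for Efl1. Those of the other genes higher at 80 days were 0.24 for Qdpr, 0.32 for Sdhc, 0.30 for Idh3a, 0.30 for Rpl4, 0.27 for U2af1, 0.24 for Psmb2, 0.37 for Tap2, 0.33 for Gna12, 0.30 for Tuba1a and 0.27 for Fasn. Among the lowest genes they were -1.495 for the Ptprz1 probe, -0.71 for the Grn probe, -0.59 for Ppih and -0.44 for Snhg20. In neurons and glia they were -0.97 for Syt10, -0.94 for Pdyn, -0.31 for Cacna2d1 and -0.41 for Slc1a3. In respiration and translation they were -0.25 for Ndufb3, -0.20 for Ndufa5, -0.31 for Cox7b, -0.24 for Atp5mpl, -0.22 for Mrps11 and -0.17 for Mrps24. Further differences were -0.26 for Ube2q2 and -0.29 for Hoxa5.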

How the results depend on the processing

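The 95 called genes kept their direction in 1993 of 1993 values, of which 1554 were past the threshold, with 28 genes past it in every setting that tested them. These genes were chosen by their calls, and every setting reuses all or most of the same arrays. The kept direction is therefore no independent check of it. Of the markers named without a call, Aif1 (-0.28 to 0.16), Mbp (-0.17 to 0.075) and Snap25 (-0.17 to 0.032) changed sign. Without the 3 muscle arrays 44 of the 99 named genes lost their call, among them Npc1, Pdyn, Gna12, Psmb3 and Lsm4. The counts moved more. Probes with p under 0.05 numbered 1219 and became 2144 without the filter on dim probes, 2518 with array weights, 1930 without the 2 arrays high in microglia genes and 744 to 1673 with 1 array left out, the fewest without SOD1G93A replicate 3. Higher probes, 508, became 911 without background subtraction, 796 with bright backgrounds reset, 1061 without loess, 923 without the filter, 1302 with weights, 965 without the microglia arrays, 1003 without the 3 muscle arrays and 269 to 960 with 1 array left out (269 without SOD1G93A replicate 3, 326 without WT replicate 2, 960 without SOD1G93A replicate 4). Lower probes, 711, became 259 without loess, 456 in the deposited normalized values, 1221 without the filter, 1216 with weights, 421 without the muscle arrays and 465 to 1118 with 1 array left out (465 without WT replicate 4, 1118 without SOD1G93A replicate 1). After Benjamini-Hochberg adjustment limma called 0 probes, and 1 in Cy3 alone, in the deposited values and with weights, and 0 to 1 with 1 array left out (1 without WT replicate 1). Probes with an interaction p under 0.05, 792, became 1464 without background subtraction, 1475 with bright backgrounds reset, 2145 with processed signals, 89 without loess and 2155 with weights. The causes were not tested, other than that the filter changes the number of probes.

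With the replicate number as a block 1346 probes were called, 954 of them shared with the unblocked fit, the smallest adjusted p was 0.788, and the interaction count was 745. Of the 4 slides, 1 SOD1G93A array correlated best with the WT array of its own number. Arrays of the same number share a slide, and 4 such correlations are too few to show whether the slide had an effect. Of the 99 named genes 12 lost their call under the block and 1 gained one, Gfap. Signal over background limits the values of dim probes, 49.0% to 55.3% of the array being above background in Cy3, and 4 arrays a group limit them all.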
